A study of Populus tomentosa with 15 samples.

Results

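The genes described here were high in *PtomtAPX*-overexpressed cells after H2O2 and close to WT in the same line without it. They were chosen by their measured values. For each gene, D of a group is the mean log2(FPKM + 1) of its 3 libraries minus the mean of the 3 WT libraries, where FPKM is a read number scaled by gene length and library total. A gene is a member when D(*OX*-H) is above 1.5, D(*OX*-H) exceeds D(*OX*) by more than 1.5, D(*OX*) lies within 0.75 of 0, and D(*anti-3*-A) lies within 1.5 of 0. These conditions were met by 122 of 42635 features of the table, 120 with a POPTR identifier of *P. trichocarpa* and 2 with another kind of identifier. Because the rule used *OX*-H, *OX*, *anti-3*-A and WT, the values of these groups are a description of the choice. The *anti-3* libraries entered the rule nowhere, so *anti-3* gives the comparison that the choice did not set.

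RNA-seq was carried out on suspension cells of *Populus tomentosa*, which grow as dispersed cells in liquid medium, collected at day 5 after subculture. *OX*-H cells were the overexpression line given 10 mM H2O2 for 3 h, and *OX* cells were the same line without it. *anti-3*-A cells were the *PtomtAPX*-antisense line *anti-3* given 1 mM ascorbate (AsA) for 3 h, *anti-3* cells were that line without it, and WT cells were untransformed and untreated. Each group had 3 libraries, and whether these came from separate cultures is not stated, so p-values measure the spread between these libraries, which may be technical. The overexpression construct was driven by the constitutive 35S promoter, and *anti-3* is a single antisense line. The *OX* cells also needed a cytokinin in their medium to grow. WT cells given H2O2 and mock-treated cells were not analysed here, so H2O2, the line and the handling of the treated cells cannot be told apart. The transcript of *PtomtAPX* itself was not analysed here, because no identifier in the sources used here is paired with it, and the cell type was not checked against marker genes for the same reason.

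Ascorbate peroxidase (APX) reduces H2O2 to water with ascorbate as the electron donor. The mitochondrial form clears H2O2 that leaks from respiration. H2O2 is both a toxic by-product and a signal in plant cells, and added H2O2 is known to change transcription of many genes, including genes for transcription factors and for enzymes that remodel the cell wall.

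The 15 libraries held 15618191 to 21278437 reads, as worked back from the FPKM values. The reads on the 122 members made up 2.52% to 2.66% of all reads in *OX*-H, 0.685% to 0.721% in *OX*, 0.592% to 0.701% in *anti-3*-A, 0.282% to 0.287% in *anti-3* and 0.596% to 0.632% in WT. The 5 groups thus did not overlap for *OX*-H at the top and *anti-3* at the bottom, while *anti-3*-A overlapped both *OX* and WT. In RNA from bulk cultures, a smaller share of cells that express a gene and a lower level per cell cannot be told apart. The most abundant member alone took 0.889% to 0.961% of the reads in *OX*-H, and the other 121 members together took 1.64% to 1.70%. In WT the same shares were 0.191% to 0.201% and 0.395% to 0.441%.

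**Figure D1:**
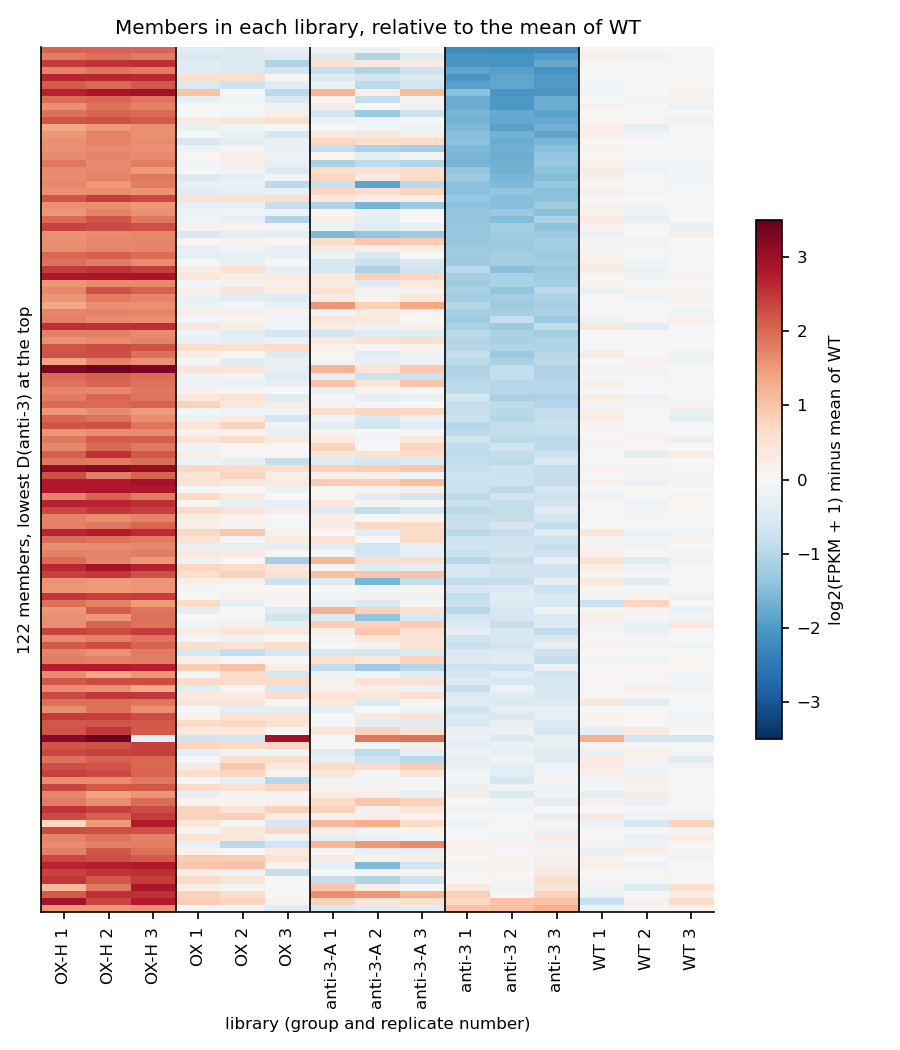
log2(FPKM + 1) of the 122 members (rows, lowest D(*anti-3*) at the top) in each of the 15 libraries (columns), as the difference from the mean of the 3 WT libraries. The *OX*-H columns are red in nearly every row, which the rule sets, and most rows are blue in the 3 *anti-3* columns, which the rule did not use.

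The median D(*OX*-H) of the members was 1.93 (range 1.501 to 3.33), and that of all 24694 genes tested (those reaching 1 FPKM or more in 3 or more libraries) was -0.10. In plain FPKM, the mean level in *OX*-H was 4.83-fold that in WT for the median member (2.87-fold to 31.2-fold) and 4.31-fold that in *OX*. The 31.2-fold ratio was that of a member with 4.42 FPKM in *OX*-H and only 0.141 FPKM in WT. That was the lowest WT mean of all members, from 24 reads over the 3 WT libraries. The median of the members' mean levels was 35.1 FPKM in *OX*-H, 8.95 in *OX*, 8.08 in *anti-3*-A, 3.84 in *anti-3* and 8.17 in WT. Before H2O2 the members were therefore genes of ordinary level, since the median over all genes tested was 7.74 FPKM in *OX* and 8.71 in WT. In *OX*-H 32 members reached at least 100 FPKM, and 11 did so in WT. The number of members under 1 FPKM was 0 in *OX*-H, 9 in *OX*, 14 in *anti-3*-A, 36 in *anti-3* and 18 in WT. All 122 members passed the filter on low values, 114 of them also without counting the *OX*-H libraries, so that 8 passed only through the group in which they are high by the rule.

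**Figure D2:**
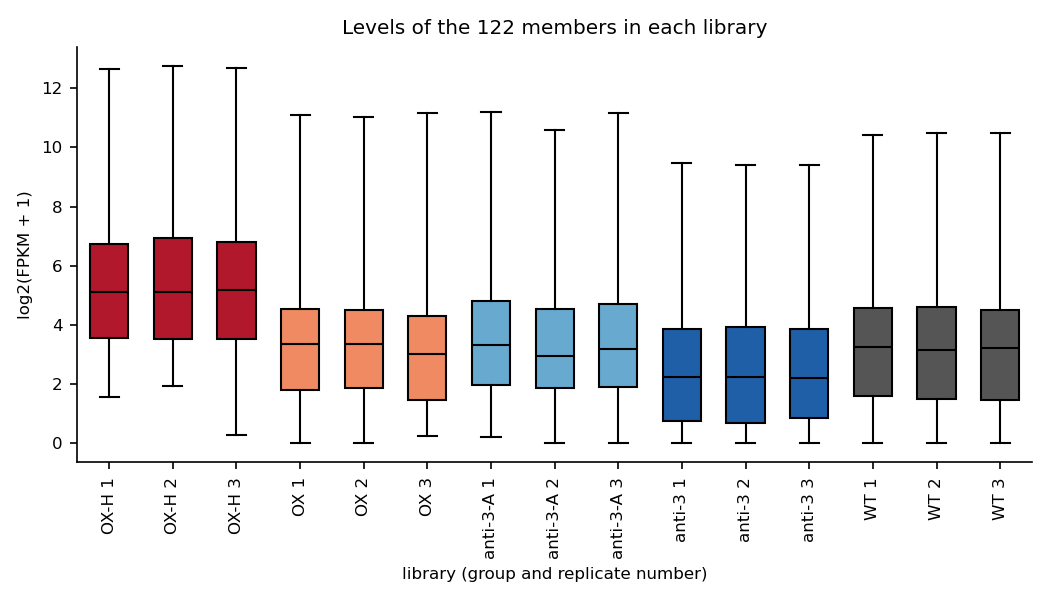
log2(FPKM + 1) of the 122 members in each library, with boxes from the lower to the upper quartile, a line at the median and whiskers to the lowest and highest member. The medians are 5.13 to 5.18 in *OX*-H, 3.03 to 3.36 in *OX*, 2.97 to 3.32 in *anti-3*-A, 2.22 to 2.26 in *anti-3* and 3.17 to 3.25 in WT.

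A pair of libraries stood somewhat apart for these genes. *OX* replicate 3 was the lowest *OX* library for 76 of the 122 members (62.3%, against 34.8% of all genes tested), with a median deviation from the group mean of -0.12. *anti-3*-A replicate 2 was the lowest of its group for 70 members (57.4%, against 32.5% of all genes tested), with a median deviation of -0.11. The median SD of log2(FPKM + 1) over the members was 0.09 in *OX*-H, 0.18 in *OX*, 0.19 in *anti-3*-A, 0.13 in *anti-3* and 0.13 in WT, against 0.10, 0.11, 0.11, 0.09 and 0.09 over all genes tested in the same groups. Without both of these libraries the rule was met by 108 genes, 101 of them among the 122.

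The thresholds cut through a continuous range. The member with the smallest D(*OX*-H) had 1.501, and the next gene outside had 1.486. The difference between D(*OX*-H) and D(*OX*) was 1.504 for the member nearest the limit and 1.492 for the nearest gene outside. The largest D(*OX*) in size was 0.743 among the members and 0.757 just outside. The bound on *anti-3*-A mattered little, with 1.45 just inside, 1.5005 just outside and 3 genes kept out by it alone, against 77 kept out by the first condition alone, 101 by the second and 74 by the bound on *OX*.

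The largest D(*OX*-H) was that of POPTR_0002s02430, which had 151, 166 and 154 FPKM in *OX*-H, 20.3, 19.9 and 11.7 in *OX*, 34.9, 19.9 and 28.7 in *anti-3*-A, 6.50, 7.60 and 6.57 in *anti-3*, and 15.98, 13.8 and 14.4 in WT. The *OX*-H libraries lay far above the other 12, the *OX* and WT libraries overlapped, and the *anti-3* libraries lay below all others. Its mean in *OX*-H was 157 ± 7.94 FPKM (SD, n = 3), 9.08-fold that in *OX* and 10.7-fold that in WT. The second largest was that of POPTR_0018s09710, with 752, 799 and 748 FPKM in *OX*-H, 146, 140 and 133 in *OX*, 156, 160 and 173 in *anti-3*-A, 49.4, 52.2 and 48.6 in *anti-3*, and 96.7, 80.7 and 84.5 in WT. Here the *OX* libraries, though inside the bound (D = 0.67), all lay above WT, and H2O2-treated cells had 5.49-fold the level of untreated *OX* cells. Neither gene is annotated in the sources used here.

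**Figure D3:**
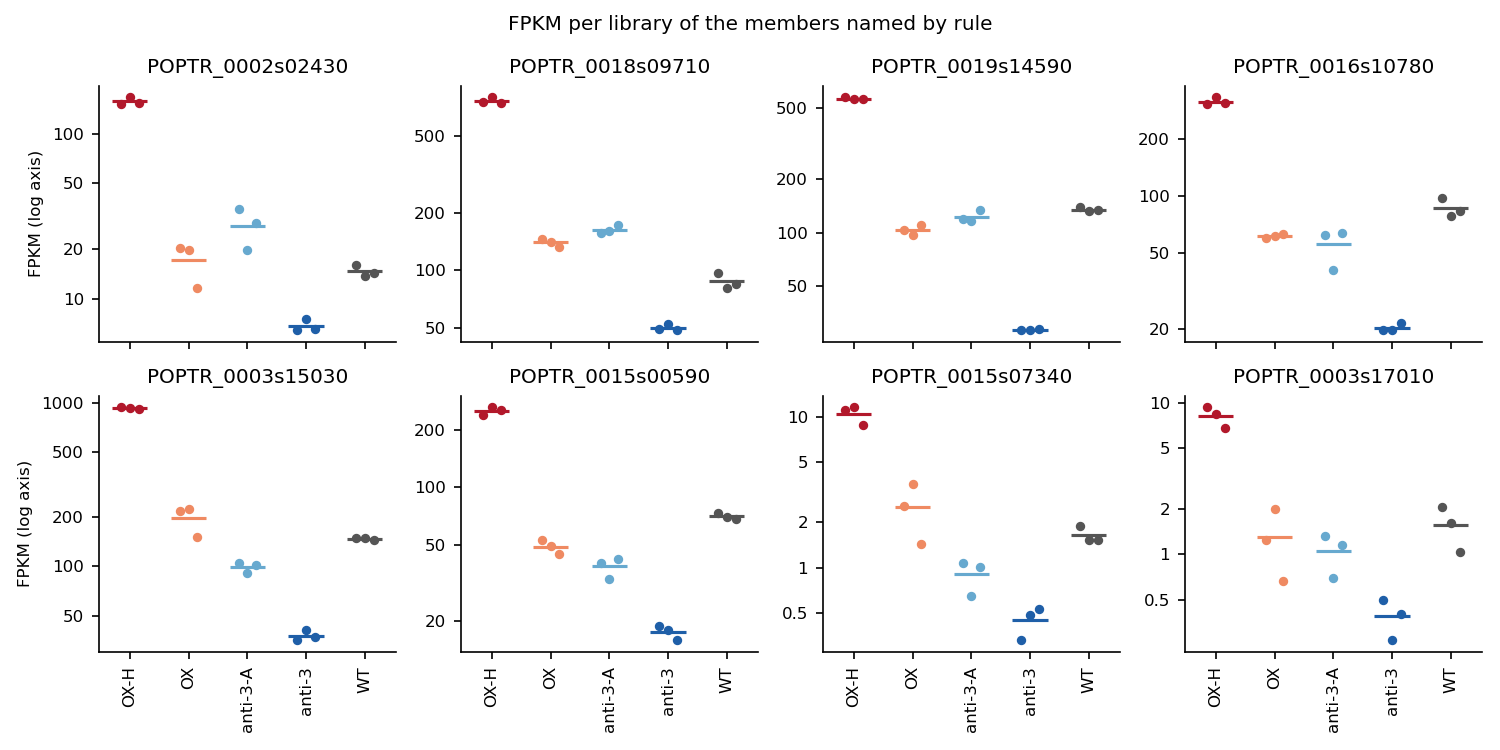
FPKM (log axis) per library of the 8 members named by rule, with 1 point per library and a line at the mean of each group of 3. In all 8 panels the *OX*-H points are the highest and the *anti-3* points the lowest of the 5 groups.

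The most abundant member, also without annotation, had 6393, 6916 and 6640 FPKM in *OX*-H, 2166, 2099 and 2279 in *OX*, 1610, 1404 and 1564 in *anti-3*-A, 710, 681 and 679 in *anti-3*, and 1373, 1446 and 1439 in WT. It was already among the strongly expressed genes of untreated cells, and its *OX* libraries lay above WT by a D of 0.62.

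For 119 of the 122 members all 3 *OX*-H libraries lay above all 12 other libraries, which follows in large part from the rule. The same order was found for 14.6% of all genes tested. The other 3 overlapped. The least regular had 13.1, 15.7 and 0.226 FPKM in *OX*-H, 0, 0 and 10.96 in *OX*, 0.480, 4.60 and 4.91 in *anti-3*-A, 0.324, 0.119 and 0.293 in *anti-3*, and 2.75, 0 and 0 in WT, so that it was high in some libraries of 4 groups. A second of these, with 263 bases by the length worked back, rested on 79 reads in *OX*-H and 15 in WT. The third reached 414, 492 and 488 FPKM in *OX*-H, and 472, 287 and 415 FPKM in *anti-3*-A, against 161, 162 and 162 in WT. It was thus nearly as high after AsA in the antisense line as after H2O2 in the overexpression line, within the wide bound on *anti-3*-A (D = 1.24).

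Few reads limited some members. Over the 3 WT libraries 24 members had under 100 reads, and over the 3 *OX*-H libraries 5 had. The member with the fewest reads in WT had 74 reads in *OX*-H and 7 in WT. Scaled to library totals this was a ratio of 12.7, with an exact 95% interval of 5.86 to 32.7 that covers counting error only. The rule chose this gene for being high in *OX*-H over WT, so the interval is no test of that difference. The median member had 1966 reads in *OX*-H and 526 in WT.

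To see how far the choice rested on single libraries, the rule was applied to the replicates of 2 numbers in every group and the genes so chosen were read in the libraries of the number left out. With number 1 left out, 139 genes met the rule, 102 of them were above 1.5 for *OX*-H minus WT in the left-out libraries, and their median there was 1.76. With number 2 left out, it was 122 of 135 genes, with a median of 2.09. With number 3 left out, it was 95 of 109 genes, with a median of 1.93. *OX* was within 0.75 of WT in the left-out libraries for 120 of 139, 105 of 135 and 86 of 109 genes in the same order. With number 1 left out this was more genes than were above 1.5 for *OX*-H minus WT, and with numbers 2 and 3 fewer. The left-out libraries belong to the groups that the rule used and may be technical replicates. These counts therefore describe the choice and are no test of a rise after H2O2. The shares of all genes tested within the same limits in the left-out libraries are not given here.

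In the antisense line the members were low. The question here is whether genes that were high after H2O2 were also high in *anti-3*, the line with less APX. None of the 122 members was a differentially expressed gene (DEG, with an adjusted p below 0.001 and absolute log2 fold change above 1.5, limma-trend over 24694 genes) with a higher level in *anti-3* than in WT, while 5.59% of all genes tested were. At an unadjusted p below 0.05, 3 members (2.46%) were higher in *anti-3* in the limma fit, against 23.6% of all genes tested. By the limits for a DEG, voom on whole reads called 0 members higher in *anti-3*, and 7.56% of all genes tested. In the other direction 17 members fell in *anti-3*, or 13.9%, and 2.60% of all genes tested did. The median D(*anti-3*) was -0.78 over the members (quartiles -1.23 and -0.50, range -2.20 to 1.09) and -0.26 over all genes tested, so that relative to the median gene the members were lower by a median of -0.52. Among the 114 members that passed the filter also without the *OX*-H libraries, a count added after seeing the data, 17 were lower (14.9%) and 0 higher by the limits for a DEG, 106 had a mean below WT, and the median D(*anti-3*) was -0.83.

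By sign, 111 of the 122 members had a lower mean in *anti-3* than in WT (91.0%, against 66.5% of all genes tested). All 3 *anti-3* libraries lay below all 3 WT libraries for 95 members (77.9%), and this was so for 52.6% of all genes tested. The opposite order was found for 2 members, and for 24.2% of all genes tested. At an adjusted p below 0.001 without a limit on the fold change, limma-trend found 78 members lower (36.3% of all genes tested were) and 1 higher (17.3% were). The WT libraries were shared between this comparison and the rule. Among the 108 genes chosen without *OX* replicate 3 and *anti-3*-A replicate 2, 19 were lower (17.6%) and 0 were higher in *anti-3* by the limits for a DEG, and the median D(*anti-3*) was -0.83.

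**Figure D4:**
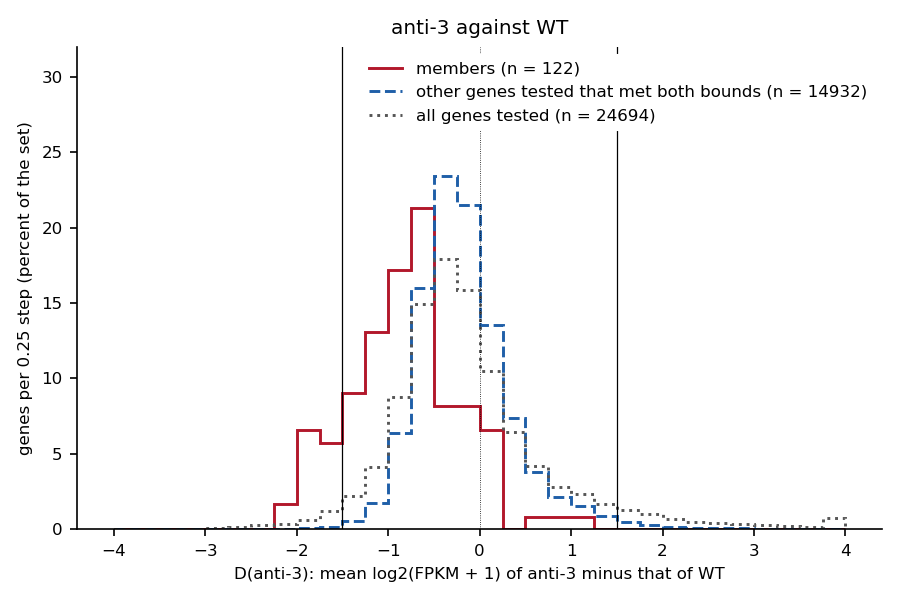
Distribution of D(*anti-3*), as percent of each set, for the 122 members, for the 14932 other genes tested that met the bounds on *OX* and *anti-3*-A, and for all 24694 genes tested. Vertical lines mark 1.5 in either direction, and genes beyond the axis are counted in its end steps. The members lie to the left of both other sets, with a median of -0.78, against -0.23 and -0.26.

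Genes that met the 2 bounds on *OX* and *anti-3*-A but not the conditions on *OX*-H are the nearest set that the rule leaves out. Of these 14932 genes, 0.154% were lower and 1.16% higher in *anti-3* by the same limits, and their median D(*anti-3*) was -0.23. Of the 867 other genes tested with a D(*OX*-H) above 1.5, most of which were also high in *OX* (median D(*OX*) 1.54), 1.73% were lower in *anti-3* and 13.03% higher, with a median D(*anti-3*) of 0.07. *anti-3* had the lowest mean of the 5 groups for 103 of the 122 members (84.4%), for 42.4% of the 14932 genes and for 32.3% of the 867 genes. These shares describe the sets and were not tested against each other.

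The log2(FPKM + 1) scale limits how far a low gene can fall, and 31 of the 122 members had a WT mean at or under 1.5 on that scale, so that they could not pass the fold limit whatever their level in *anti-3*. With a pseudocount of 0.1, 37 members were lower in *anti-3* (4.98% of all genes tested were), and with voom on whole reads 36 were (5.30% of all genes tested). In both settings 0 members were higher, while 7.35% and 7.56% of all genes tested were, in the same order.

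Members differed in D(*anti-3*). It was below -1.5 for 17 members, between -1.5 and -0.75 for 48, within 0.75 of 0 for 55 and between 0.75 and 1.5 for 2. Of all genes tested, 2.62%, 15.1%, 70.0% and 6.76% lay in these classes, and 5.60% lay above 1.5. D(*OX*-H) was of like size in the 3 larger classes, with a median of 1.85, 1.88 and 1.99. The median D(*OX*) was -0.17, -0.05 and 0.24 in the same classes.

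The member with the highest D(*anti-3*), which has no annotation, had 41.2, 41.6 and 44.2 FPKM in *OX*-H, 13.3, 13.01 and 10.2 in *OX*, 9.31, 9.95 and 10.4 in *anti-3*-A, 28.8, 29.1 and 33.9 in *anti-3*, and 11.6, 14.6 and 15.6 in WT. Its *anti-3* libraries did not overlap with WT. It was higher in *anti-3* by 1.09 ± 0.11 on the log2 scale (SE, limma adjusted p = 1.6e-07), which is under the limit of 1.5 on the fold change. It was the 1 member that was a DEG with a lower level after AsA in the antisense line.

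AsA-treated antisense cells were compared with untreated *anti-3* cells, to see whether the low level in the antisense line was kept after AsA. Since the rule held D(*anti-3*-A) within 1.5 of 0, the range of this comparison was partly set by the choice. The mean was higher in *anti-3*-A than in *anti-3* for 108 of the 122 members, with a median difference of 0.91 (0.27 over all genes tested). By the same limits 24 members (19.7%) rose and 1 (0.82%) fell after AsA, and 2.73% and 5.69% of all genes tested did. Of the 14932 other genes tested that met both bounds, and so were held near WT in *anti-3*-A too, 0.536% rose and 1.35% fell. The share of members that fell was thus near that of this set. The libraries did not overlap, with *anti-3*-A higher, for 89 members (73.0%), which was the case for 52.6% of all genes tested. At an adjusted p below 0.001 at any fold, limma-trend found 73 members higher after AsA (38.3% of all genes tested were) and 2 lower (17.9% were). The 1 that fell, described above, did so by 1.54 on the log2 scale (SE 0.11), and it was no longer called without *anti-3* replicate 3 or without *anti-3*-A replicate 1. When the library medians were aligned, 15 members rose (1.73% of all genes tested did).

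After AsA the members were close to WT, with a median D(*anti-3*-A) of 0.07 (quartiles -0.29 and 0.50) and 68 of 122 above WT. Below WT were 44.3% of the members, close to the 47.5% of all genes tested. Since the rule held D(*anti-3*-A) within its bound, this closeness is part of the description of the choice and no test of a return to WT. Mock-treated *anti-3* cells were not analysed here, so AsA and the handling cannot be told apart.

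Functions are known here for 11 of the 122 members, from the Gene Ontology (GO) term lists of the study, whose identifiers were only partly visible. The study built these lists from genes it had called in *anti-3* or *OX* on these same samples, so the direction of a listed gene in *anti-3* is not independent evidence. Of the 17 members that fell in *anti-3*, 6 are annotated (35.3%), and of all 643 genes tested that fell 34.8% are.

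The cell wall list held 88 visible genes, of which 2 were members. POPTR_0019s14590 is annotated as a xyloglucan:xyloglucosyl transferase, a kind of enzyme that cuts and rejoins the xyloglucan chains that tie cellulose together in the growing wall. It had 570.5, 561 and 556 FPKM in *OX*-H, 104, 97.3 and 110 in *OX*, 119, 116 and 134 in *anti-3*-A, 28.5, 28.5 and 28.7 in *anti-3*, and 138, 132 and 133 in WT. The *OX*, *anti-3*-A and WT libraries lay near each other, while *OX*-H stood above and *anti-3* below them. Its fall in *anti-3* was the largest of all members, by 2.196 ± 0.054 on the log2 scale (SE, limma adjusted p = 1.01e-14), and its level in WT was 4.71-fold that in *anti-3*. After AsA it was higher by 2.06 ± 0.05 (SE). The rule bounded D(*anti-3*-A), so a member with so large a fall in *anti-3* had to be higher after AsA. Its rise is therefore a description and no test.

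POPTR_0015s00590, the other cell wall gene, is annotated for cell wall organization and tetrapyrrole binding. It had 237, 261 and 254 FPKM in *OX*-H, 53.1, 49.2 and 44.6 in *OX*, 40.3, 33.2 and 42.3 in *anti-3*-A, 18.8, 18.0 and 15.9 in *anti-3*, and 73.2, 70.0 and 68.6 in WT. All 3 *OX* and all 3 *anti-3*-A libraries lay below WT. It fell in *anti-3* by 1.95 ± 0.09 (SE, limma adjusted p = 1.18e-11). After such a fall the bound on *anti-3*-A required some rise, and after AsA the gene was higher by 1.09 ± 0.09. That is under the fold limit and no test of a rise. The feature with the preceding identifier was also a member, with 463 ± 9.57 FPKM in *OX*-H, 78.4 ± 5.69 in *OX*, 98.9 ± 18.2 in *anti-3*-A, 27.3 ± 1.42 in *anti-3* and 63.3 ± 7.14 in WT (SD, n = 3 each). Features with adjacent identifiers can be near-identical copies, and no source used here says how the authors assigned reads that fit several genes.

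The 88 cell wall genes as a list had a median D of 0.79 in *OX*-H, 0.39 in *OX*, -0.12 in *anti-3*-A and -0.41 in *anti-3*. Of these genes 27 had a D(*OX*-H) above 1.5 and 2 below -1.5. Only the 2 members among these 27 also met the other conditions of the rule.

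Among 96 visible genes of the transcription factor list, 1 was a member. POPTR_0003s15030, annotated as a sequence-specific DNA-binding transcription factor, had 944, 934 and 916 FPKM in *OX*-H, 220, 225 and 151 in *OX*, 105, 91.7 and 103 in *anti-3*-A, 35.4, 40.5 and 36.7 in *anti-3*, and 149, 148 and 145 in WT. From high to low the groups ran *OX*-H, *OX*, WT, *anti-3*-A and *anti-3*, and their libraries did not overlap, although *OX* replicate 3 came close to WT. It fell in *anti-3* by 1.95 ± 0.11 (SE, limma adjusted p = 2.08e-10). The bound on *anti-3*-A then required some rise, so the rise after AsA is no test. After AsA the gene was higher by 1.39 ± 0.11, under the fold limit. Its mean in *anti-3*-A, 99.8 ± 7.05 FPKM, stayed below the 147 ± 1.85 FPKM of WT (SD, n = 3 each).

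A pair of further members, chosen after their values were seen because they are annotated, carry the terms regulation of transcription and transcription factor binding, together with cell differentiation. POPTR_0005s00340 was a low gene, with 9.96, 14.3 and 10.7 FPKM in *OX*-H, 2.01, 1.75 and 1.70 in *OX*, 2.43, 2.64 and 3.01 in *anti-3*-A, 0.404, 0.411 and 0.572 in *anti-3*, and 1.71, 1.06 and 2.10 in WT. POPTR_0004s02060 had 31.0, 34.3 and 37.6 FPKM in *OX*-H, 9.45, 10.15 and 11.3 in *OX*, 11.6, 10.2 and 9.97 in *anti-3*-A, 3.22, 2.35 and 2.90 in *anti-3*, and 13.9, 8.999 and 11.9 in WT. POPTR_0004s02060 was near the lower limit of the rule in *OX*-H and fell in *anti-3* by 1.71 ± 0.13 (SE, limma adjusted p = 7.27e-09). After AsA it was higher by 1.60 ± 0.13, of which some rise was required by the bound on *anti-3*-A, so this is no test.

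The second largest fall in *anti-3* was that of POPTR_0016s10780, annotated only as an intrinsic component of a membrane. It had 305, 331 and 308 FPKM in *OX*-H, 59.9, 61.9 and 63.3 in *OX*, 62.4, 40.9 and 63.8 in *anti-3*-A, 19.8, 19.7 and 21.5 in *anti-3*, and 98.4, 78.8 and 83.6 in WT. The *anti-3* libraries lay well below the others, and *anti-3*-A replicate 2 was the lowest of its group. The fall was 2.04 ± 0.12 on the log2 scale (SE, limma adjusted p = 6.28e-10). POPTR_0001s11310, annotated to the cell periphery and chosen after its values were seen, was near the upper bound on *OX* (D = 0.73) and weakly expressed outside *OX*-H, with 6.85 ± 0.57 FPKM in *OX*-H, 1.69 ± 0.10 in *OX*, 0.666 ± 0.162 in *anti-3*-A, 0.323 ± 0.067 in *anti-3* and 0.627 ± 0.115 in WT (SD, n = 3 each).

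Photosynthesis genes supplied 4 members. The cells were kept in the dark. Light-harvesting proteins bind chlorophyll and pass the absorbed energy to the photosystems. Of 7 visible genes of the light-harvesting list 2 were members. POPTR_0015s07340 had 11.1, 11.5 and 8.76 FPKM in *OX*-H, 2.58, 3.60 and 1.43 in *OX*, 1.07, 0.647 and 1.02 in *anti-3*-A, 0.334, 0.488 and 0.536 in *anti-3*, and 1.89, 1.53 and 1.53 in WT. POPTR_0003s17010 had 9.33, 8.46 and 6.81 FPKM in *OX*-H, 1.24, 2.002 and 0.667 in *OX*, 1.31, 0.700 and 1.15 in *anti-3*-A, 0.494, 0.271 and 0.401 in *anti-3*, and 2.045, 1.60 and 1.04 in WT. Both genes were weakly expressed outside *OX*-H, and *OX* replicate 3 was the lowest *OX* library for both. The *OX*, *anti-3*-A and WT libraries overlapped for POPTR_0003s17010, while for POPTR_0015s07340 all 3 *anti-3*-A libraries lay below all *OX* and WT libraries.

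Both were lower in *anti-3*, by 0.87 ± 0.18 for POPTR_0015s07340 (SE, limma adjusted p = 0.00049) and by 0.87 ± 0.20 for POPTR_0003s17010 (limma adjusted p = 0.0010), under the fold limit on this scale. At their level in WT a fall of 1.5 is not possible with a pseudocount of 1. In plain FPKM their WT means were 3.64-fold and 4.02-fold those of *anti-3*.

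A wider list of genes with the term photosynthesis or thylakoid, added after seeing the data, held 24 visible genes. It added POPTR_0007s12070 of photosystem II, with 17.1, 20.1 and 15.7 FPKM in *OX*-H, 3.27, 2.76 and 1.27 in *OX*, 4.23, 2.73 and 3.65 in *anti-3*-A, 0.795, 0.610 and 1.15 in *anti-3*, and 4.60, 2.83 and 3.58 in WT. It also added POPTR_0002s25510 of photosystem I, with 48.1, 49.8 and 45.5 FPKM in *OX*-H, 9.58, 10.15 and 7.80 in *OX*, 12.5, 6.06 and 10.8 in *anti-3*-A, 2.87, 2.14 and 2.79 in *anti-3*, and 11.7, 10.9 and 12.6 in WT. The photosystem I gene fell in *anti-3* by 1.82 ± 0.17 (SE, limma adjusted p = 1.28e-07). After AsA it was higher by 1.54 ± 0.17, of which some rise was required by the bound on *anti-3*-A, so this is no test.

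The other 20 listed genes ranged widely. D(*OX*-H) was above 0 for 6 of them, below 0 for 14 and below -1.5 for 8, with a range of -4.45 to 3.06 and a median of -1.12. In *OX* their median D was -1.34. Set against untreated *OX* cells, 11 of the 20 had a higher mean FPKM in *OX*-H and 3 exceeded *OX* by more than 1.5 on the log2 scale. Named after their values were seen, POPTR_0001s47590 had 32.3 FPKM in *OX*-H and 6.87 in *OX*, and POPTR_0016s12260 had 89.8 FPKM in *OX*-H and 20.3 in *OX*, but with a D(*OX*-H) of 0.70 and 0.67 they were no members. The 1 non-member above 1.5 in *OX*-H, POPTR_0010s22790 (named after its values were seen), was kept out by the bound on *OX*, with a D(*OX*-H) of 3.06 and a D(*OX*) of 0.79. In *anti-3*, 23 of the 24 listed genes had a mean below WT, members and non-members alike, and so did 66.5% of all genes tested. The study had called the listed genes in *anti-3* or *OX* on these same samples, so this direction is not independent evidence.

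**Figure D5:**
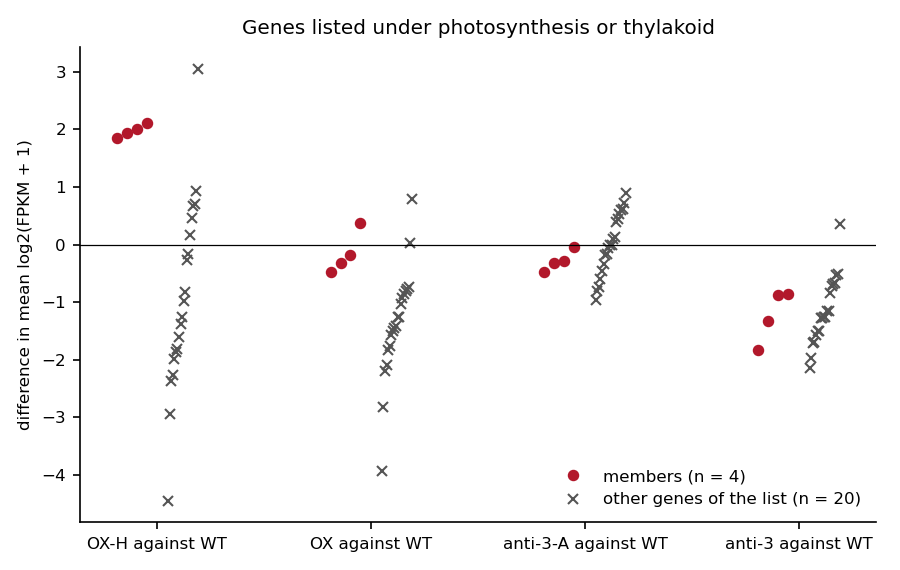
Difference in mean log2(FPKM + 1) from WT for the 24 genes listed under photosynthesis or thylakoid, with members as circles (n = 4) and other genes as crosses (n = 20). In *OX*-H the members lie between 1.85 and 2.10 while the other genes reach from -4.45 to 3.06. In *anti-3* 23 of 24 genes lie below 0, as do 66.5% of all genes tested.

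The remaining lists held no member. These were redox enzymes (184 visible genes), UDP-glycosyltransferases (83), protein kinases (83), calcium-binding and calmodulin-binding proteins (66), ubiquitin-related genes (57), hormone and defence genes (57), transport genes (49), membrane proteins (91), protein folding genes (39), glutathione-related genes (27) and peptidase inhibitors (20). Several of them had genes with a D(*OX*-H) above 1.5, among them 31 redox enzymes and 14 UDP-glycosyltransferases, but these did not meet the other conditions. The median D(*OX*) was 1.41 for the redox list and 1.20 for the UDP-glycosyltransferases, outside the bound on *OX*. Of the 14932 other genes tested that met both bounds, 277 carried a GO term, and of all 24694 genes tested 2003 did. The lists thus cover few genes that were close to WT in *OX*, and 0 members in a list says little about the process it is named for.

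By the numbers in their identifiers, 115 of the 120 members with a POPTR identifier were on the 19 scaffolds with the lowest numbers, with 1 to 13 on each and at least 1 on all 19. The most were on scaffold 2, which held 10.8% of the members and 7.07% of the genes tested with such identifiers. Adjacent identifiers were found for 2 pairs, of which 1 is described above. In the other, the members of the pair differed widely in level, with 3.64 ± 0.66 and 46.0 ± 6.96 FPKM in *OX*-H, against 0.203 ± 0.198 and 13.7 ± 2.15 FPKM in WT (SD, n = 3 each). The median length of the members, worked back from the FPKM steps, was 1104.5 bases, and that of all genes tested was 1395 bases.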

How the data were processed

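The authors mapped reads to *P. trichocarpa* and deposited 1 FPKM value for each gene in each library. The paper names SOAPaligner/SOAP2 and RPKM, while the submitters' processing notes name Bowtie2 2.2.3, TopHat2 2.0.12 and HTSeq 0.6.1, and it was not settled which made the table. The 4 deposited tables of the authors' own DEG comparisons hold their log2 ratios and p-values and were not used.

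Groups were taken from the labels. Every FPKM value above 0 (445124 in all) converted to whole reads to within 0.0001, which gave totals of 15618191 to 21278437 reads per library. limma 3.58.1 (R 4.3.3) was run as limma-trend on log2(FPKM + 1) of the 24694 genes that reached 1 FPKM in 3 or more libraries, in 1 fit of all 15 libraries, with Benjamini-Hochberg adjustment over all genes, and was tested on simulated data. DEGs were called at an adjusted p below 0.001 with a log2 fold change beyond 1.5 in either direction. Other values were computed with Python 3.11.15. The replicate numbers did not pair libraries.

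The members and lists were chosen with earlier results of these data known. Named are the 2 members with the largest D(*OX*-H), the 2 largest rises (none was called) and 2 largest falls in *anti-3* among DEGs whose libraries did not overlap, up to 3 members per GO list, and genes named in the paper where they are members (none was). Identifiers were not paired with gene names, and 0 matched the reference used here. Alternatives were pseudocounts, filters, scalings, other thresholds, limma without the trend, the replicate block, voom on whole reads and each library left out.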

Additional observations from a re-analysis of the deposited data

How the results depend on the processing

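The number of members was 122. It was 291 with a pseudocount of 0.1 (103 of the 122 among them), 441 with both rises above 1, 29 with both above 2, and 55 when D(*anti-3*) was also held within 0.75. With 1 library left out it was 107 to 137, and with 1 replicate number left out of all groups 109 to 139.

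The 17 members lower in *anti-3* than WT became 37 with a pseudocount of 0.1, 36 with voom on whole reads and 73 with a fold change above 1.5, and 12 with library medians aligned, when 4.98%, 5.30%, 25.1% and 1.64% of all genes tested were called in the same order. With 1 library left out they were 14 to 19. The 0 members higher in *anti-3* became 1 with a fold change above 1.5 (14.0% of all genes tested were called), and stayed at 0 under the other settings run. The 24 members higher in *anti-3*-A than *anti-3* became 46 with a pseudocount of 0.1, 46 with voom on whole reads, 72 with a fold change above 1.5 and 15 with library medians aligned (5.58%, 6.15%, 27.3% and 1.73% of all genes tested), and 23 to 28 with 1 library left out. The 1 member lower in *anti-3*-A became 2 with a fold change above 1.5 (14.6% of all genes tested were called), and 0 to 1 with 1 library left out. It also became 2 when the members were chosen without *OX* replicate 3 and *anti-3*-A replicate 2, an alternative chosen after seeing the data. With members so chosen, 19 of 108 were lower and 0 higher in *anti-3*.

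With the replicate number as a block, the counts were 17, 0, 24 and 1, as without it. Libraries with the same number did not deviate together (correlations of -0.02 to 0.02 for these 2 comparisons). The 6 named members called in *anti-3* were called under each alternative run, and 0 reversed. The rule chose the named genes for a high value in *OX*-H, so it is no support that none of these values changed sign. Under the alternatives 173 such values moved by less than the spread between libraries and 35 by more. Genes with few reads limit the low end: 31 members could not reach a fall of 1.5 on the log2(FPKM + 1) scale.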
